A study of Mus musculus with 13 samples.

Results

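MHC class II molecules show peptides to CD4+ T cells, and 10 genes of that function were followed in the lungs of mice breathing normal or high oxygen. Of the genes, 7 belong to the class II pathway itself (H2-Aa, H2-Ab1, H2-Eb1, Cd74, H2-DMa, H2-DMb1 and Ciita) and 3 mark dendritic cells (Flt3, Xcr1 and Ccr7), the professional antigen-presenting cells. They were taken by symbol from a table of 32544 genes, and all 10 were present and passed the filter on low counts that left 12496 genes for testing. The question was whether the class II genes and the dendritic cell markers changed alike under hyperoxia.

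Male C57BL/6J mice of wild-type genotype were purchased at 7 weeks of age and were older than that when used. They breathed 21% oxygen (normoxia, 7 libraries) or 80% oxygen (hyperoxia, 6 libraries) for 5 days, with no other treatment. Whole lungs were perfused with cold saline and frozen, and RNA was sequenced by Quant-seq, which reads the 3′ end of polyadenylated transcripts. The labels give 1 library for each sample and do not state that each sample is a separate mouse, so the p-values measure the spread between these libraries. A level is given as CPM, the count relative to the library's total, scaled by the trimmed mean of M values (TMM), which sets the libraries to a common scale from the genes that differ least.

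In the class II pathway, an alpha and a beta chain meet the invariant chain, encoded by Cd74, which blocks the groove and carries the complex to the endosome. There cathepsins and other proteases cut the invariant chain down to a short fragment, and H2-DM exchanges that fragment for a peptide of the antigen, a step that H2-O restrains. Transcription of all these genes except those of the proteases rests on a shared promoter module of X and Y boxes, on which RFX, CREB and NF-Y assemble and recruit CIITA, the master regulator. Dendritic cells, B cells and macrophages express the pathway at rest, and in the lung alveolar type 2 cells do so as well.

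The shared promoter module could be read in the reference sequence of several members. RefSeq promoters of the GRCm38.p6 build, from 250 bases before to 50 bases after each gene start, were found for 6 of the 10 members. The letters searched were GNAAC, the start of the X box, followed after 20 to 32 bases by TGATTGG, the Y box that binds NF-Y. On the gene's own strand the pair stood in 51 of 32851 promoters, or 0.155%, and on either strand in 0.35%. The windows below are shown because they hold the letters of this module, and the capitals mark the X box start and the Y box.
H2-Aa: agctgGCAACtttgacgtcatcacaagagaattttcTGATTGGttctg
H2-Eb1: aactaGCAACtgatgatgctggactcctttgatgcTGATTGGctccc
H2-DMb1: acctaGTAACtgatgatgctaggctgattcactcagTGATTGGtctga
H2-Ob: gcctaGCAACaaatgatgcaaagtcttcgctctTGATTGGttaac

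The H2-Aa window lay at chr17:34287862-34287909 on the minus strand, the H2-Eb1 window at chr17:34305771-34305817 on the plus strand and the H2-DMb1 window at chr17:34153092-34153139 on the plus strand. The fourth, at chr17:34238813-34238857 on the plus strand, belongs to H2-Ob, a chain of the H2-DM inhibitor and no member. Counted from the RefSeq gene start, which can differ from the annotated gene's first base given below (as for H2-DMb1, whose window lies inside the annotated gene), the Y box began 50, 61, 63 and 59 bases upstream in H2-Aa, H2-Eb1, H2-DMb1 and H2-Ob, and the 2 boxes were 26, 25, 26 and 23 bases apart. Among the partners, H2-Oa and H2-Eb2 held the pair as well, and H2-DMb2 held the Y box letters without it. The pair was not found in the windows of H2-DMa, Flt3 or Xcr1. A match of letters is a description of the sequence and was not tested for binding.

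All members were annotated as protein-coding genes on GRCm38. The genes H2-DMa (chr17:34119541-34139101), H2-DMb1 (chr17:34153072-34160230), H2-Ab1 (chr17:34257689-34269419), H2-Aa (chr17:34282744-34287823) and H2-Eb1 (chr17:34305867-34316674) lay together in the major histocompatibility complex on chromosome 17. Cd74 lay on chromosome 18, Ciita at chr16:10480059-10528418, Flt3 at chr5:147330741-147400489, Xcr1 at chr9:123852315-123862029 and Ccr7 at chr11:99144196-99155077. On the opposite strand, Dexi overlaps the span of Ciita and Brd2 that of H2-DMa. Whether their transcripts share sequence was not checked, and the strand setting of the counting is not given in the sources used here. Any mixing of reads between these genes was therefore not assessed. H2-DMb1 and H2-Eb1 have close copies in H2-DMb2 and H2-Eb2, so their counts are uncertain to that extent.

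Libraries held between 1607111 and 3387736 counts in normoxia and between 2029006 and 4540288 in hyperoxia. Hyperoxia replicate 1 stood apart, with a mean correlation of 0.779 to the other libraries against at least 0.886 for each of the rest, and results are also given without it. The library names fall into 2 letter sets whose meaning the labels do not give, B to M with 5 normoxic and 3 hyperoxic libraries and O to S with 2 and 3. Surfactant protein C (Sftpc), which marks lung, was present at 5070 to 13600 CPM in normoxia and at 32.7 to 2910 CPM in hyperoxia. Under the edgeR quasi-likelihood test with Benjamini-Hochberg adjustment, a gene was called at an adjusted p under 0.05, and a fold change is written on the log2 scale as hyperoxia minus normoxia.

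Most of the class II genes and 2 of the dendritic cell markers were lower in hyperoxia. Of the 10 members 8 were lower and none was higher, namely 6 of the 7 class II genes (all but Ciita) and 2 of the 3 markers (Xcr1 and Ccr7, not Flt3), where 10.8% of all genes tested were lower and 11.8% were higher. With limma-voom 5 members were lower, since H2-Eb1, Xcr1 (adjusted p = 0.055) and Ccr7 (adjusted p = 0.0621) did not pass, and both markers also missed the threshold without a filter on low counts. Of all calls 47.7% were in the lower direction, a share that was 61.2% with limma on the deposited log values and 38.6% after a correction for GC content and length. With a log2 fold change under −1.5 asked for as well, 4 members were lower (H2-Aa, H2-Ab1, H2-Eb1 and Cd74), against 2.35% of all genes. In bulk tissue, fewer cells of a type and less RNA per cell cannot be told apart.

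The classical chains form the peptide-binding molecule at the cell surface. H2-Ab1, the beta chain of I-A, ranged from 55.5 to 251 CPM in normoxia with a median of 122, and from 6.97 to 49.2 CPM in hyperoxia with a median of 36.2. It was the only member whose groups did not overlap, a pattern that 5.23% of all genes showed in the lower direction. With means of 141 ± 65.3 CPM (SD, n = 7) in normoxia and 32.9 ± 15.9 (SD, n = 6) in hyperoxia, the log2 fold change was −2.08 (SE 0.39, 95% interval −2.90 to −1.27, adjusted p = 0.00114), or 4.24-fold lower.

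H2-Aa encodes the alpha chain that pairs with it. Its level ranged from 57.1 to 206 CPM in normoxia, with a median of 126, and from 0.536 to 64.9 CPM in hyperoxia, with a median of 35.0. The groups overlapped through 1 normoxic library, replicate 6, and 4 of the 6 hyperoxic libraries lay below every normoxic one. The means of 133 ± 47.2 (SD, n = 7) and 34.8 ± 25.0 CPM (SD, n = 6) gave a log2 fold change of −1.91 (SE 0.51, 95% interval −2.99 to −0.83, adjusted p = 0.013). The lowest hyperoxic value, in replicate 1, rested on 1 count, and without that library the log2 fold change was −1.65 (adjusted p = 0.00123).

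H2-Eb1 encodes the beta chain of I-E, whose alpha chain C57BL/6 mice do not make. It ranged from 7.53 to 123 CPM in normoxia with a median of 66.4, and from 1.07 to 29.7 CPM in hyperoxia with a median of 19.5. Normoxia replicate 6, at 7.53 CPM, fell within the hyperoxic range, and the other normoxic libraries, at 45.8 CPM or more, all lay above it. The means were 64.9 ± 35.9 (SD, n = 7) and 17.9 ± 10.3 CPM (SD, n = 6), and the log2 fold change was −1.82 (SE 0.52, 95% interval −2.93 to −0.71, adjusted p = 0.0196).

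Cd74, the invariant chain that escorts new class II molecules, was lower as well, with the smallest standard error of the class II genes. Its level ranged from 67.2 to 216 CPM in normoxia, with a median of 167, and from 12.9 to 67.8 CPM in hyperoxia, with a median of 52.2. The overlap was a single value on each side, 67.2 CPM in normoxia replicate 6 and 67.8 in hyperoxia replicate 5. From 165 ± 52.2 (SD, n = 7) to 47.6 ± 20.9 CPM (SD, n = 6), the log2 fold change was −1.78 (SE 0.33, 95% interval −2.47 to −1.09, adjusted p = 0.00106).

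The H2-DM heterodimer edits the peptides that class II molecules carry. H2-DMa, its alpha chain, ranged from 6.97 to 29.4 CPM in normoxia (median 21.7) and from 1.61 to 12.0 CPM in hyperoxia (median 7.36), with a log2 fold change of −1.49 (SE 0.41, 95% interval −2.36 to −0.63, adjusted p = 0.0149). H2-DMb1, one of its beta chains, ranged from 4.74 to 13.7 CPM in normoxia (median 6.64) and from 0.695 to 5.03 CPM in hyperoxia (median 2.45). All hyperoxic libraries but replicate 6 lay below every normoxic value of H2-DMb1, whereas only 2 of the 6 did so for H2-DMa. The log2 fold change of H2-DMb1 was −1.42 (SE 0.40, 95% interval −2.27 to −0.58, adjusted p = 0.0172).

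Ciita, which encodes the coactivator of all these promoters, did not pass the threshold. It ranged from 4.29 to 21.7 CPM in normoxia with a median of 9.33, and from 1.07 to 12.0 CPM in hyperoxia with a median of 3.25. Normoxia replicates 6 and 7 were at 21.2 and 21.7 CPM, above the 4.29 to 10.1 of the other 5, and hyperoxia replicate 6 was at 12.0. The log2 fold change was −1.28 (SE 0.49, 95% interval −2.33 to −0.24, adjusted p = 0.0733), so the interval held falls as large as those of the classical chains. Without hyperoxia replicate 6 it was −1.87 and passed (adjusted p = 0.0129). The overlapping gene Dexi was lower too, with a log2 fold change of −0.93 (adjusted p = 0.012).

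**Figure D1:**
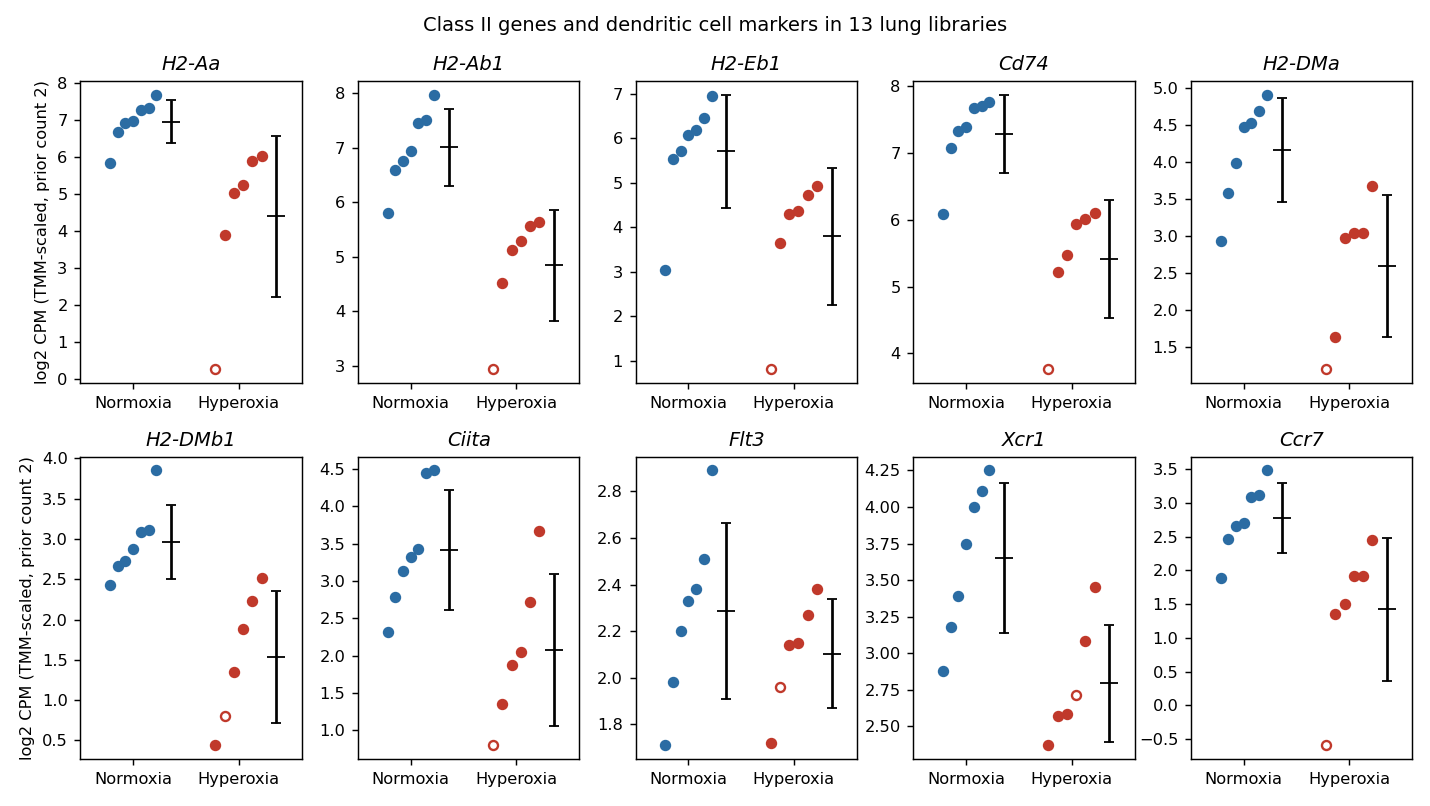
Each panel shows 1 gene, with log2 CPM (TMM-scaled, prior count of 2) on the vertical axis, 1 point for each library (hyperoxia replicate 1 as an open circle) and the mean with SD of the 7 normoxic and 6 hyperoxic libraries beside the points. Hyperoxia replicate 1 is the lowest hyperoxic library for 6 of the 7 class II genes and normoxia replicate 6 the lowest normoxic one for 6, while the groups of Flt3 lie over each other.

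Flt3 encodes the receptor for Flt3 ligand, on which dendritic cells and their progenitors depend. It ranged from 2.61 to 6.74 CPM in normoxia with a median of 4.37, and from 2.62 to 4.53 CPM in hyperoxia with a median of 3.76. No hyperoxic library was below every normoxic one, and 3 of the 7 normoxic libraries were above every hyperoxic one. The log2 fold change was −0.23 (SE 0.27, adjusted p = 0.598) with a 95% interval from −0.81 to 0.35. These values rest on 6 to 18 counts per library, and the interval still held a fall of up to 0.81 on the log2 scale.

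Xcr1, the chemokine receptor of the cross-presenting type 1 conventional dendritic cells (cDC1), was lower. Its level ranged from 6.72 to 18.4 CPM in normoxia with a median of 12.8, and from 4.52 to 10.3 CPM in hyperoxia with a median of 5.61. In 4 of the 6 hyperoxic libraries it was below every normoxic value. The log2 fold change was −0.92 (SE 0.29, 95% interval −1.53 to −0.31, adjusted p = 0.0306), from 12.6 ± 4.43 (SD, n = 7) to 6.52 ± 2.15 CPM (SD, n = 6). The call was lost on leaving out any 1 of 6 libraries, normoxia replicates 3, 5 or 7 or hyperoxia replicates 2, 3 or 5, with log2 fold changes from −0.85 to −0.80.

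Ccr7 guides mature dendritic cells to the lymph node and is also carried by naive T cells and B cells. It ranged from 3.03 to 10.5 CPM in normoxia with a median of 5.85, and from 0 to 4.81 CPM in hyperoxia with a median of 2.64. Hyperoxia replicate 1 had 0 counts, which allows up to 3 counts or 1.61 CPM in that library, and 3 of the 6 hyperoxic libraries lay below every normoxic one. The log2 fold change was −1.27 (SE 0.43, 95% interval −2.18 to −0.36, adjusted p = 0.0443). The call was kept only on leaving out normoxia replicate 4 or hyperoxia replicates 1 or 6, and was lost without any 1 of the other 10 libraries, with log2 fold changes from −1.31 to −1.10.

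**Figure D2:**
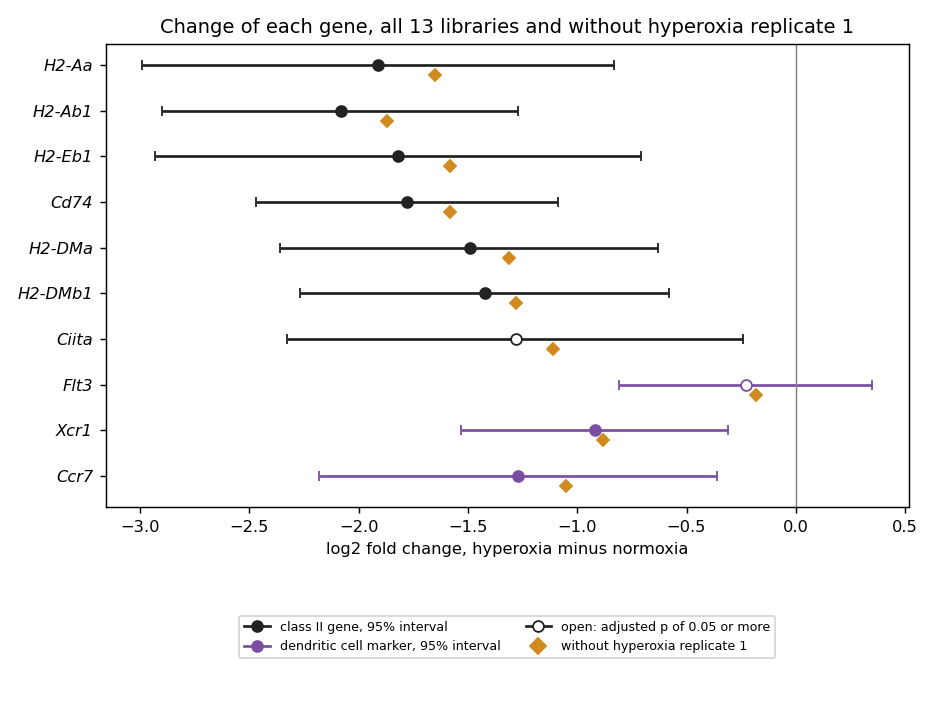
The horizontal axis is the log2 fold change of hyperoxia minus normoxia from edgeR, for each of the 10 genes, as a circle with its 95% interval for all 13 libraries (open where the adjusted p was 0.05 or more) and as a diamond without hyperoxia replicate 1. With all libraries the intervals of the class II genes lie below 0, around −2.08 for H2-Ab1 to −1.28 for Ciita, and that of Flt3 spans 0.

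H2-Ab1 and Cd74 passed the threshold under all 9 alternatives, with exact permutation p of 0.00117 and 0.00233 for the difference in mean log2 CPM (two-sided, n = 7 and 6). The value of 0.00117 is the smallest that the 1716 divisions of 13 libraries into 7 and 6 allow. H2-DMb1 had the same exact p as Cd74, 0.00233. Adjusted over the 10 members, the exact permutation p was under 0.05 for each member but Flt3 (0.325), with 0.0311 for Ciita. With every one of the 13 libraries left out in turn, the log2 fold change of H2-Ab1 ran from −2.22 to −1.87 and that of Cd74 from −1.91 to −1.58, past the threshold each time. The other 4 class II genes called lower, H2-Aa, H2-Eb1, H2-DMa and H2-DMb1, passed in the same 13 fits as well, but H2-Eb1 did not pass with limma-voom (−1.70, adjusted p = 0.105) or with a term for the letter set (−1.65, adjusted p = 0.0707). None of these 4 passed with a block for the replicate number, although that number did not pair the libraries.

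The size of the class II difference was not alike in the 2 letter sets. In the set B to M the difference in mean log2 CPM was −3.83 for H2-Aa, −2.96 for H2-Ab1, −3.23 for H2-Eb1 and −2.75 for Cd74, and without hyperoxia replicate 1 it was −2.29, −2.25, −2.10 and −2.22. In the set O to S it was −0.97, −0.94, 0.24 and −0.57 for the same genes, so that H2-Eb1 was not lower there. The H2-DM chains behaved alike, with −2.57 and −0.03 for H2-DMa and −2.08 and −0.55 for H2-DMb1. Ciita went the other way, with −1.42 and −1.89, Xcr1 was nearly even, with −0.99 and −0.90, and Ccr7 was at −1.91 and −0.72 and Flt3 at −0.10 and −0.24. Without hyperoxia replicate 1 the B to M value was −1.17 for Ccr7, −1.07 for Xcr1, −1.03 for Ciita and 0.02 for Flt3, and −2.18 and −1.95 for H2-DMa and H2-DMb1. No test was made within a set, and O to S held only 2 normoxic libraries, of which replicate 6 was the lowest of all normoxic libraries for every class II gene but Ciita. With the letter set as a term in the edgeR fit, H2-Eb1 was at −1.65 (adjusted p = 0.0707) and Ciita at −1.61 (adjusted p = 0.00812).

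The libraries also differed in base composition. Over 11884 genes, the Spearman correlation of transcript GC content with a library's deviation from the mean log2 CPM was −0.36 in normoxia replicate 6 and −0.30 in hyperoxia replicate 3, and from 0.20 to 0.28 in normoxia replicates 1, 2, 3 and 5, the 4 libraries with the highest levels of H2-Ab1 and H2-Eb1. In hyperoxia replicates 1 and 2 it was −0.09 and 0.26. After a correction for GC content and length, chosen after seeing the data, H2-Ab1 was at −1.94 (adjusted p = 5.86e-05), Cd74 at −1.66 (adjusted p = 0.000128), H2-Aa at −1.89 and H2-Eb1 at −1.76, and the same number of members, 8, were lower.

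To compare the class II genes with the markers directly, the log2 CPM of a marker was subtracted from that of a class II gene within each library, for 21 pairs chosen after seeing the data. Against Flt3, the change was below 0 in all 7 pairs, 5 had an unadjusted exact p under 0.05 and 2 passed after adjustment. The H2-Ab1 value above Flt3 was 4.72 ± 0.91 (SD, n = 7) in normoxia and 2.74 ± 1.02 (SD, n = 6) in hyperoxia, a change of −1.98 (two-sided exact permutation test, p = 0.00233, adjusted over 21 pairs 0.049). For Cd74 it was 5.00 ± 0.69 (SD, n = 7) and 3.31 ± 0.90 (SD, n = 6), a change of −1.69 (exact p = 0.00466, adjusted 0.049). H2-Aa had the largest change against Flt3, −2.38, which missed the threshold with an adjusted exact p of 0.0571, and Ciita had the smallest, −1.15.

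Against Xcr1 and Ccr7, no pair passed. The changes against Xcr1 ran from −1.71 for H2-Aa to −0.48 for Ciita, with adjusted exact p from 0.0909 to 0.441, and 3 of the 7 pairs had an unadjusted p under 0.05. Against Ccr7 they ran from −1.22 for H2-Aa to 0.01 for Ciita, with adjusted exact p from 0.101 to 0.998 and 1 unadjusted p under 0.05. Without hyperoxia replicate 1 all 21 changes were below 0, from −1.63 to −0.14, and none passed, with a lowest adjusted exact p of 0.106 and 4 pairs at an unadjusted p under 0.05. The pairs with Xcr1 and Ccr7 that missed the threshold do not show that these genes fell alike.

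**Figure D3:**
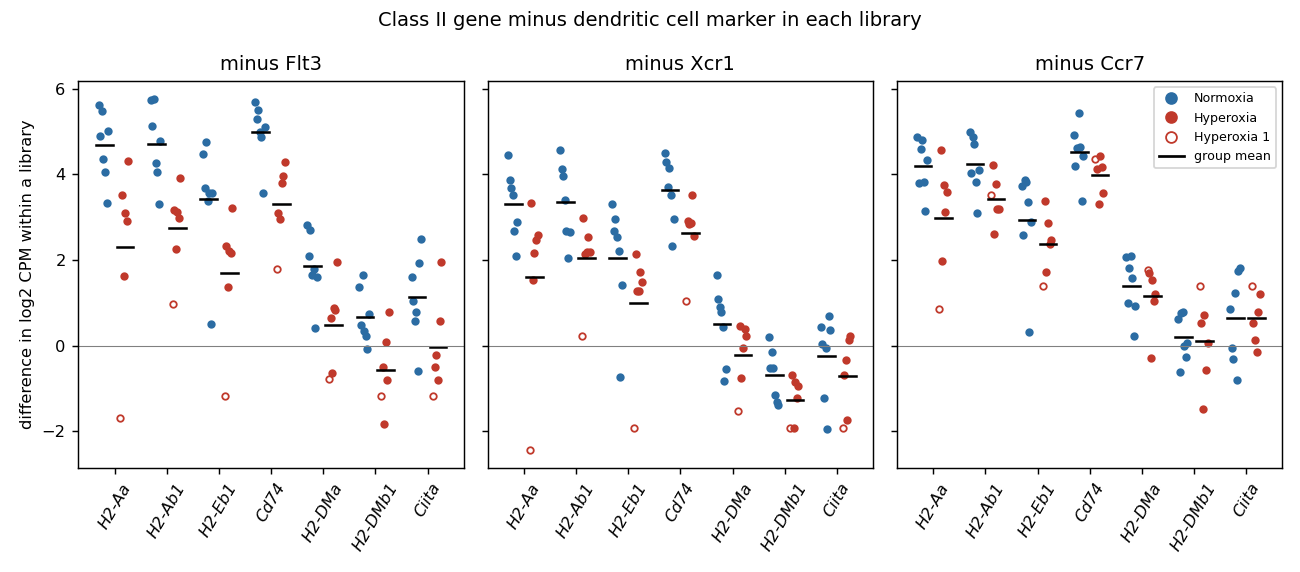
The 3 panels give, for each class II gene, its log2 CPM minus that of Flt3, Xcr1 or Ccr7 within each library, with points for the 7 normoxic and 6 hyperoxic libraries. The gap between the groups is widest against Flt3, where H2-Ab1 moves from a mean of 4.72 to 2.74, and narrows against Ccr7.

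The genes that act with class II molecules were taken as lists. Of 8 processing and loading partners tested, 3 were lower and 1 was higher, with a median log2 fold change of −0.33 against −0.03 over all genes. H2-Ob, which restrains H2-DM, was lower, from 20.1 ± 3.05 (SD, n = 7) to 4.77 ± 2.28 CPM (SD, n = 6), a log2 fold change of −2.08 (adjusted p = 9.38e-05), and its groups did not overlap. H2-DMb2, the other H2-DM beta chain, was lower by a log2 fold change of −0.88 (adjusted p = 0.00368), as was March1, the ligase that removes class II molecules from the surface, at −0.58 (adjusted p = 0.0391). Ctsb, cathepsin B, was the gene that was higher, at 0.51 (adjusted p = 0.0151), and 2 were higher without hyperoxia replicate 1. Cathepsin S (Ctss), which makes the last cut of the invariant chain, was at −0.09 and the thiol reductase Ifi30 at −0.79 without passing, while H2-Oa and H2-Eb2 were too low to test.

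Of 7 factors that assemble on the X and Y boxes, Creb1 was lower, with a log2 fold change of −0.46 (adjusted p = 0.00648). The count of factors lower was the same under 7 of 9 alternatives in processing and 0 under the others. The 6 factors other than Creb1 did not pass and lay on both sides of 0, from −0.54 for Nfya to 0.47 for Nfyb, around a list median of −0.04. The RFX subunit Rfx5 was at −0.04 (adjusted p = 0.887) and the adjusted p of the NF-Y subunit Nfyb was 0.082.

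Among the costimulatory ligands, Cd83, which is found on mature dendritic cells and B cells, was the 1 of 4 that was lower, at −1.25 (adjusted p = 0.0111). Cd86, the B7 ligand of CD28, was at −0.39 (adjusted p = 0.49). The class I pathway, which shows peptides to CD8+ T cells, had 1 of 11 genes lower, near the 10.8% of all genes, and a median of −0.28. The count was 4 without hyperoxia replicate 2, 3 without normoxia replicate 6 and 2 without hyperoxia replicate 1 or 3. Under 9 alternatives in processing it ran from 0 to 3 and was the same in 3 of them. The class I gene called lower with all libraries was Psmb9, an immunoproteasome subunit, at −1.53 (adjusted p = 0.00934), next to its partner Psmb8 at −1.22 (adjusted p = 0.0513). The class I heavy chains H2-K1 and H2-D1 were at −0.20 and −0.06, and the light chain B2m was at −0.15, none of them past the threshold. Hyperoxia replicate 1 was low for this list too, with a summed 686 CPM against a normoxic range of 1990 to 3100.

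The list of dendritic cell ligands gave 1 gene lower of 3 tested. Of these, Csf1, at 0.22 (adjusted p = 0.513), is no ligand of FLT3, XCR1 or CCR7. Flt3l, the ligand of FLT3, went from 20.6 ± 4.75 (SD, n = 7) to 10.7 ± 3.45 CPM (SD, n = 6), a log2 fold change of −0.95 (adjusted p = 0.00806). The CCR7 ligand Ccl21a was at −1.08 (adjusted p = 0.0792), and the XCR1 ligand Xcl1 was too low to test. Without normoxia replicate 6, 2 of these genes were lower.

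Other genes of dendritic cells were taken by subtype. Of 7 shared dendritic cell genes, 2 were lower and 1 higher (median −0.22). The lower ones were Dpp4 at −1.39 (adjusted p = 2.01e-04), which epithelium and T cells carry too, and the integrin Itgax at −1.10 (adjusted p = 0.0291). The higher one was Cd24a at 0.71 (adjusted p = 0.0224), which epithelium carries as well. Zbtb46, a transcription factor of conventional dendritic cells, was at −0.33 (adjusted p = 0.287). In this list 1 gene was lower on leaving out normoxia replicates 1, 2 or 3 or hyperoxia replicates 3 or 5.

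Of 7 cDC1 genes, 4 were lower and none higher, with a median of −0.88. Clec9a, the cDC1 receptor for dead cells, went from 44.4 ± 8.19 (SD, n = 7) to 18.2 ± 6.43 CPM (SD, n = 6), a log2 fold change of −1.29 (adjusted p = 6.36e-04). The adhesion molecule Cadm1, which epithelium and other cells carry too, was at −0.88 (adjusted p = 2.43e-04), and at 524 CPM in normoxia it made up most of the summed level of this list, which ran from 751 to 826 CPM in normoxia and from 402 to 547 in hyperoxia. Cd8a, at −1.69 (adjusted p = 0.007), also marks CD8+ T cells, and which cells carried it in these lungs was not tested. Batf3, a defining factor of cDC1, was too low to test.

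Of 5 genes of type 2 conventional dendritic cells, 1 was lower and 1 higher (median −0.64). The lectin Cd209a was lower, at −1.46 (adjusted p = 0.0149), and Klf4, which endothelium also carries, was higher, at 0.69 (adjusted p = 0.0228). Without hyperoxia replicate 1, 3 of these genes were lower, and without hyperoxia replicate 4, 2 were. Of 8 genes of mature migratory dendritic cells, 2 were lower and 1 higher (median −0.22). Traf1, a signalling adaptor also found in lymphocytes, was at −1.70 (adjusted p = 1.56e-05) and the chemokine Ccl22 at −1.48 (adjusted p = 0.0199), while the gene that was higher was Socs2, an inhibitor of cytokine signalling, at 0.39 (adjusted p = 0.0392). That call was lost on leaving out any 1 of 9 libraries (normoxia replicates 1 to 7 or hyperoxia replicates 2 or 3), and 1 gene was lower without normoxia replicate 2 or 3. Of 5 genes of plasmacytoid dendritic cells, 3 were lower and 1 higher (median −1.08). The gene that was higher was Cox6a2, a cytochrome oxidase subunit of muscle, at 1.87 (adjusted p = 1.78e-04), and the homing receptor Ccr9 was lower at −1.30 (adjusted p = 0.00259). Only 1 was lower on leaving out any 1 of 7 libraries, normoxia replicates 1, 2, 3, 5 or 7 or hyperoxia replicates 4 or 5.

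Markers of other cells that make class II molecules followed. B cell genes were lower in 8 of 9, with a median of −1.98, and their summed level ran from 231 to 321 CPM in normoxia and from 57.0 to 139 CPM in hyperoxia, without overlap. Cr2, the complement receptor of B cells, was at −2.20 (adjusted p = 2.31e-05) and the signalling scaffold Bank1 at −1.98 (adjusted p = 8.23e-05). In hyperoxia replicate 1 the B cell sum was the highest of the hyperoxic libraries, at 139 CPM, although 6 of the 7 class II genes were lowest there. The part of B cells in the class II difference was not tested.

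Alveolar type 2 cell genes were lower in 6 of 7, with a median of −1.72, and the summed level ran from 12400 to 23100 CPM in normoxia and from 3190 to 6880 CPM in hyperoxia. Lamp3, a lysosomal protein of these cells that mature dendritic cells also carry, was at −1.73 (adjusted p = 2.01e-07), and the surfactant lipid transporter Abca3 was at −1.27 (adjusted p = 1.92e-05). Alveolar macrophage genes were lower in 4 of 8 (median −0.33), among them Ear2 at −2.04 (adjusted p = 0.00318) and Siglecf at −1.33 (adjusted p = 0.00706). The other 4, Marco, Chil3, Pparg and Fabp4, lay above 0 without passing, from 0.17 to 0.98, and the median summed level of the list was 463 CPM in normoxia and 535 CPM in hyperoxia. Without hyperoxia replicate 1, whose summed level was 70.2 CPM against a normoxic range of 285 to 565, the macrophage median was −0.13 with 3 genes lower and 1 higher (Chil3, at 1.02 with an adjusted p of 0.000519), and 2 were lower without normoxia replicates 1, 2, 3 or 5 or hyperoxia replicates 3 or 4. The part of each of these cell types in the class II difference was not tested.

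Interstitial macrophage and monocyte genes were lower in 2 of 9 (median −0.11), namely the monocyte genes Ccr2 at −0.85 (adjusted p = 0.00806) and Ly6c2 at −1.67 (adjusted p = 0.0214). Without hyperoxia replicate 1, 4 were lower and the median was 0.12, without normoxia replicate 1 only 1 was lower, and 1 was higher without normoxia replicate 3 or hyperoxia replicate 3. Of 2 T cell genes tested, Cd3d was lower at −1.14 (adjusted p = 0.00544) and Cd28 was at −1.21 (adjusted p = 0.0815). Without normoxia replicate 5 or hyperoxia replicate 4, 2 genes of the list were lower, and the summed level of the list ran from 25.2 to 45.5 CPM in normoxia and from 11.5 to 23.1 CPM in hyperoxia. None of 5 neutrophil genes passed by edgeR (median −0.18), against 1 at an unadjusted p under 0.05 and 1 by DESeq2 or limma-voom, and Mmp9 was closest at −1.12 (adjusted p = 0.0606), followed by S100a9 at −0.30 (adjusted p = 0.591). Of these genes 1 was lower without hyperoxia replicate 1 or normoxia replicate 6, and 2 without hyperoxia replicate 4. General capillary endothelial genes were lower in 4 of 7 and higher in 1 (median −1.16), while their summed level was higher, from 2330 to 2760 CPM in normoxia and from 3200 to 6400 CPM in hyperoxia. Cd93 carried that sum, with a mean of 755 CPM in normoxia and 3480 CPM in hyperoxia, and the fold changes of the other 6 genes were all below 0. The receptor Aplnr was lower, at 6.06 to 20.9 CPM in normoxia and 0 to 0.625 in hyperoxia (adjusted p = 1.82e-06), and the surface protein Cd93 was higher, at 2.20 (adjusted p = 1.66e-06).

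**Figure D4:**
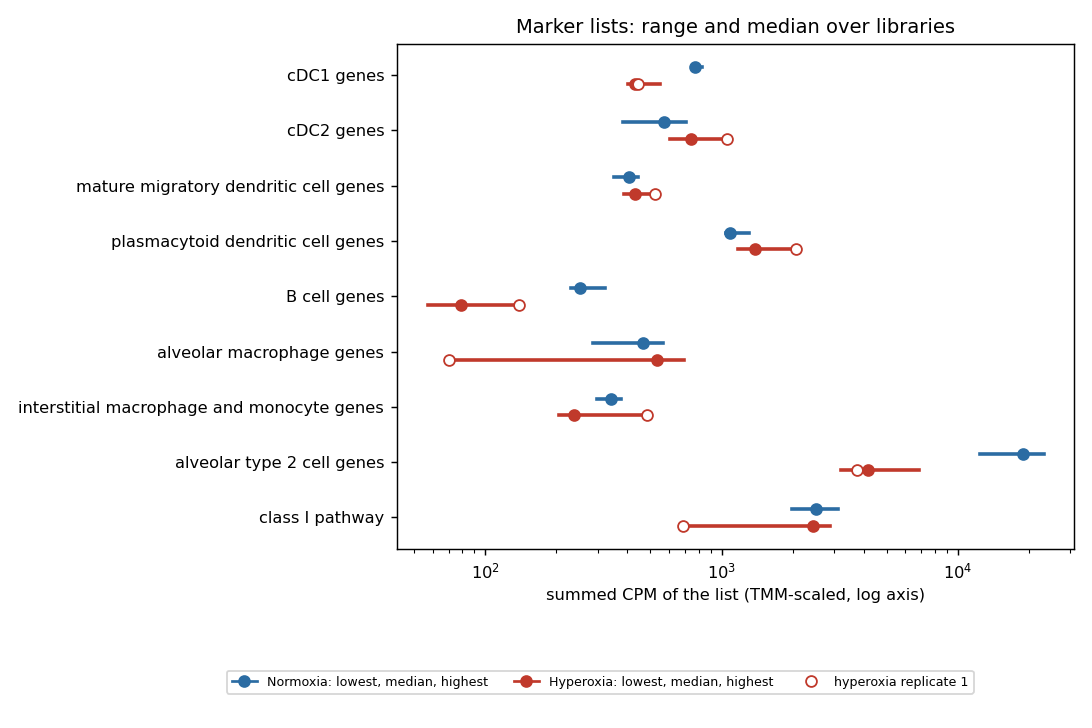
For 9 of the lists, the horizontal log axis gives the summed CPM (TMM-scaled), with a line from the lowest to the highest library, a filled circle at the median of 7 normoxic or 6 hyperoxic libraries and an open circle for hyperoxia replicate 1. Of the 9 lists drawn, those of B cells, cDC1 (mostly Cadm1) and alveolar type 2 cells do not overlap between the groups, with B cell sums of 231 to 321 CPM in normoxia and 57.0 to 139 in hyperoxia. The sums of type 2 conventional (cDC2) and plasmacytoid dendritic cells rest mostly on Klf4 and Tcf4, with normoxic means of 440 and 1010 CPM. The median log2 fold changes of these 2 lists were −0.64 and −1.08.

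Library-to-library variation within the groups was compared between genes. With the mean of H2-Aa, H2-Ab1, H2-Eb1 and Cd74 as the reference, and each library taken as its deviation from its group, the correlation over 13 libraries was 0.91 for H2-DMa, 0.72 for H2-DMb1, 0.75 for Ccr7, 0.21 for Ciita, 0.15 for Xcr1 and −0.04 for Flt3. Without hyperoxia replicate 1 these were 0.94, 0.77, 0.27, −0.33, 0.18 and −0.28, so that the likeness of Ccr7 rested largely on that library. The genes most like the reference were Pcdhga8 (r = 0.99) and Scamp4, Hexa, Itm2c and Cox8a (r = 0.98 each), and none of these differed between the groups past the threshold. Cox8a, a cytochrome oxidase subunit, had a log2 fold change of −0.01 and the lysosomal enzyme Hexa of −0.59. In all, 506 genes had r over 0.9 with the reference, and 131 did without hyperoxia replicate 1. All genes were read from the same libraries, with the same depth and base composition in each, and these values describe the 13 libraries only.

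For Flt3 the most alike were Rmi1 (r = 0.82), Ppp1r36 (0.80), BC048546 (0.79), BC051142 (0.78) and Pcsk5 (0.77), over 13 libraries. Flt3 was at −0.36 with Ciita and at 0.14 with Xcr1, and no gene had r over 0.9 with it, against 1 gene without hyperoxia replicate 1.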

How the data were processed

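Reads were pseudoaligned by the authors with kallisto, run through BioJupies, and whole-number counts per gene symbol were deposited, with no filter and no pooling of replicates. They also deposited the counts as log10 of CPM plus 1, with the library total as divisor, and a recomputation matched them to within 4.4e-16. The submitters' processing notes name mm10 and limma 3.54.2, and the annotation and strand setting are not given in the sources used here.

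Counts of all 13 libraries were tested with the quasi-likelihood test of edgeR 4.0.16 (filterByExpr, TMM, no covariate) in R 4.3.3, with Benjamini-Hochberg adjustment over the 12496 genes that passed the filter. The SE was derived from the fold change and the F statistic. Log2 CPM used a prior count of 2, and TMM-scaled CPM was given for levels. A count of 3 was taken as the floor, from 0.656 to 1.84 CPM per library, and it covers counting error only, since the counts carry no molecular identifiers. Group differences of the members in mean log2 CPM and within-library differences were tested with two-sided exact permutation tests. The 36 pairs of libraries of one group differed by more than sampling noise, with a chi-square per gene of at least 3.90.

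The members and the gene lists were chosen with earlier results of these data known. The genes named are the 10 members, the 2 smallest adjusted p in each list, exceptions in a list, and the 5 genes most like the class II mean and most like Flt3. Ctss, Ifi30, March1, H2-Oa, H2-Eb2, Rfx5, H2-K1, H2-D1, B2m, Xcl1, Csf1, Itgax, Zbtb46, Batf3, Cd8a, Tcf4, Nfya, Marco, Chil3, Pparg, Fabp4, Dexi and Sftpc were named as well for their role, after their values were seen. Alternatives were DESeq2 1.42.0, limma 3.58.1 with voom, limma on the deposited log values, library size alone, other filters, a term for the letter set, a block for the replicate number and each library left out. Letter sets alone, medians without hyperoxia replicate 1, the within-library differences and a spline correction for transcript GC content and length (11884 genes with a value) were added after the data were seen. Gene positions came from GENCODE on GRCm38 and promoters from RefSeq on GRCm38.p6. A further gene list is not reported here.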

Additional observations from a re-analysis of the deposited data

Results flagged for a closer look

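Of 60 groups of library values examined for a library far from the rest of its group, 15 had one, where chance gives about 1 in 20, or 3, and 9 were hyperoxia replicate 1. The figure given is the gap to the nearest library as a share of the group's range. Hyperoxia replicate 1 was lowest for its mean correlation with the other libraries (0.763), for H2-Aa (0.63), H2-Eb1 (0.689) and Ccr7 (0.638), and for the summed class I pathway (0.818) and alveolar macrophage genes (0.797). The same library was highest for the summed costimulatory ligands (0.735), enhanceosome factors (0.681) and interstitial macrophage and monocyte genes (0.782).

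Normoxia replicate 6 was lowest for H2-Eb1 (0.64) and Cd74 (0.596), at 7.53 and 67.2 CPM against the next values of 45.8 and 135. Normoxia replicate 5 was lowest for total count (0.612) and for the enhanceosome factors (0.583), and highest for the shared dendritic cell genes (0.597). Normoxia replicate 4 was lowest for the T cell genes (0.615). Why these libraries stood apart was not tested.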

How the results depend on the processing

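H2-Ab1 and Cd74 kept their direction and call under all 9 alternatives, from −2.22 to −1.94 and from −1.93 to −1.66 on the log2 scale, and no gene's fold change among the members changed sign. Calls were lost with limma-voom for H2-Eb1 (−1.70, adjusted p = 0.105), Xcr1 (−0.83, 0.055) and Ccr7 (−1.38, 0.0621), without a filter for Xcr1 (−0.88, 0.0536) and Ccr7 (−1.24, 0.0667), and with a letter set term for H2-Eb1 (−1.65, 0.0707) and Ccr7 (−1.36, 0.0506). Ciita passed with DESeq2 (−1.31, 0.0331), limma on the deposited log values (−1.31, 0.0452) and the letter set (−1.61, 0.00812). Members lower were 8, against 5 with limma-voom and 3 with at least 10 counts in every library, a filter that only H2-Ab1, Cd74 and Xcr1 passed. Of all genes, 1473 were higher and 1346 lower, or 194 and 294 with a log2 fold change over 1.5 in size. Over all genes the median change was −0.03, and it was −0.157 with limma on the log values, −0.104 with library size alone and 0.082 after the GC and length correction.

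With 1 library left out, the ranges were −2.18 to −1.65 for H2-Aa, −2.22 to −1.87 for H2-Ab1, −2.02 to −1.58 for H2-Eb1, −1.91 to −1.58 for Cd74, −1.77 to −1.31 for H2-DMa, −1.72 to −1.19 for H2-DMb1, −1.87 to −1.06 for Ciita, −0.30 to −0.09 for Flt3, −1.09 to −0.80 for Xcr1 and −1.55 to −1.05 for Ccr7. Between 6 and 9 members, 1049 and 1699 genes lower and 1256 and 1934 genes higher were called.

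The replicate numbers of the titles did not pair the libraries, since deviations of same-numbered libraries correlated between −0.325 and 0.272 and 0 of 6 were best matched to their own number. With the number as a replicate block (12 libraries), 703 genes were higher, 588 lower and 2 members lower, with H2-Aa at −2.18 (adjusted p = 0.0895), H2-Eb1 at −1.89 (0.144), H2-DMa at −1.67 (0.0864), H2-DMb1 at −1.55 (0.106), Xcr1 at −0.82 (0.159) and Ccr7 at −1.40 (0.11). Of 792 counts of called genes in the lists under an alternative, 32 were over 1.5 times larger and 70 over 1.5 times smaller than the reported count. The cause of these changes was not tested. Flt3 and Ccr7 rested on 0 to 30 counts per library.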
